A study of Mus musculus with 10 samples.

Results

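Cell cycle genes were examined as a set of 45 genes, listed by gene symbol. They fall into 9 roles: 4 cyclin-dependent kinases (CDKs), 5 G1 cyclins, 3 cyclins of S, G2 and M phase, 6 CDK inhibitors, 7 pocket proteins and E2F factors, 7 replication genes, 7 genes of mitosis and proliferation markers, 4 genes that switch the phosphate on CDKs, and the growth transcription factors Myc and Foxm1. Of the 45 genes, 42 had at least 1 region in the deposited tables and Aurka, Ccnb1 and Mcm4 had none. The 5 tables used held 22473 genes, and 420 of their 340994 region entries belonged to the set.

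The study mapped histone H3 lysine 9 lactylation (H3K9lc) and 3 transcription factors by CUT&Tag in fibroblasts from mouse heart. In CUT&Tag an antibody brings a transposase to the chromatin, which cuts and tags the DNA nearby. H3K9lc is a lactyl group on the histone tail, and lactate comes from glycolysis, whose first step is carried out by hexokinases such as HK1. The groups were untreated cells (NC), cells given TGF-b, and cells given TGF-b together with small interfering RNA against Hk1 (siHK1). TGF-b was thus shared by all libraries but NC. No dose, time, genotype, strain or age stands in the labels, and no control siRNA is named for the cells given TGF-b alone. JUN, SMAD3, NFATC2 and H3K9lc each had 1 TGF-b and 1 siHK1 library, and H3K9lc also had 1 NC library, whose antibody was read from the table its label names. The tables hold no RNA or protein, so the knockdown of Hk1 was not checked here.

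Cells divide when cyclins bind and activate CDKs, which phosphorylate the pocket proteins RB1, RBL1 and RBL2 and free E2F factors to turn on replication genes. CDK inhibitors such as p21 (Cdkn1a) and the proteins of the Cdkn2a locus hold this step back. Later genes of G2 and M phase are known for promoters with a CCAAT box, bound by NF-Y, and a cell cycle homology region (CHR). JUN is a subunit of AP-1, SMAD3 carries the TGF-b signal into the nucleus, and NFATC2 answers to calcium.

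The promoters of 5 genes on which the results below turn show which of these letters lie beside the mapped regions. Each line gives the 250 bases before the start site in the direction of transcription, from RefSeq on GRCm38.p6. Capitals mark matches, on either strand, to CCAAT (NF-Y), TTTGAA (CHR), TGACGTCA (the cyclic AMP response element, CRE), TGANTCA (AP-1), and TTTCCCGC, TTTGGCGC, TTTCGCGC or TTTGCCGC (E2F), which may overlap each other. Cdk1, the kinase that drives entry into mitosis, lies on the minus strand and its window was chr10:69352913-69353162. Cdk4, a G1 kinase, lies on the plus strand with its window at chr10:127063285-127063534 and held none of these letters. Pcna, the sliding clamp of DNA polymerase, had its window at chr2:132253181-132253430 on the minus strand. Mcm6 and Mcm5, subunits of the replicative helicase, had theirs at chr1:128359706-128359955 on the minus and chr8:75109259-75109508 on the plus strand.
Cdk1: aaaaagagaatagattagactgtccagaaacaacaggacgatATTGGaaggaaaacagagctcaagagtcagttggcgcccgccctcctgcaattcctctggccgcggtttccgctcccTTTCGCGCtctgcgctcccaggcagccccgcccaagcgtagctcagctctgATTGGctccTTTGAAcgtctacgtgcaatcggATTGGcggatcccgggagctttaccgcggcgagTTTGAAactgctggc
Cdk4: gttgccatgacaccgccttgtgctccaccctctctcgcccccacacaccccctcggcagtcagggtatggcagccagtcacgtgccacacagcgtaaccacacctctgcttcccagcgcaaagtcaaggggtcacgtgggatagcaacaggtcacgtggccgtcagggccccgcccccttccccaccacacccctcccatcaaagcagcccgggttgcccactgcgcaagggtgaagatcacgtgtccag
Pcna: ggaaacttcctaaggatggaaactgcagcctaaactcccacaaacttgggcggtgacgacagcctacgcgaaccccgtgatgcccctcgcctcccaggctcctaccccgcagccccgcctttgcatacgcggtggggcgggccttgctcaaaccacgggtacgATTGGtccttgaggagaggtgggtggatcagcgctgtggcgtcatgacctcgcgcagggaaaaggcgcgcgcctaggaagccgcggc
Mcm6: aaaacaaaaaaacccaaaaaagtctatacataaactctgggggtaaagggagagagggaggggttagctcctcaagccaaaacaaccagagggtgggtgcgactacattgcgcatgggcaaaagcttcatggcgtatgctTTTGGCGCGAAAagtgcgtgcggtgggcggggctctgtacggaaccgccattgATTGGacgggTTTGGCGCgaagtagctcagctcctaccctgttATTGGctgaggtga
Mcm5: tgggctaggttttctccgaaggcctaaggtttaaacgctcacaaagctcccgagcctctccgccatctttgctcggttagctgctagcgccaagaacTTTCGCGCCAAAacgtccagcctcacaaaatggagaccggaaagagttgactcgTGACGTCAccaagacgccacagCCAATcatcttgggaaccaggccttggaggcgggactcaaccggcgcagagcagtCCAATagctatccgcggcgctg

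The Cdk1 window held 3 CCAAT boxes, 2 CHR matches and 1 E2F match, whereas the Pcna window held 1 CCAAT box. The Mcm6 window held 2 CCAAT boxes and 3 E2F matches, and the Mcm5 window held 2 CCAAT boxes, 2 E2F matches and 1 CRE. A JUN region covered all 250 bases of the Cdk4 and Pcna windows, 110 of those of Mcm5, 91 of those of Cdk1 and 74 of those of Mcm6. SMAD3 regions reached into the Cdk4 window over 155 bases and the Pcna window over 57. NFATC2 regions reached into the windows of Cdk4 over 221 bases, Cdk1 over 179 and Pcna over 116. No H3K9lc region reached into any of these 5 windows.

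Of the 45 genes, 32 had an entry in the promoter table, with 39 windows of 300 bases, of which the 250 before the start were searched. CCAAT lay in 61.5% of these windows, against 33.8% of the 32851 windows of all RefSeq genes, and it was found in 22 genes, among them the mitotic genes Cdc20, Plk1, Bub1 and Top2a. E2F letters lay in 23.1% of the windows against 1.86%, in Cdc25a, Cdk1, Cdk2, Cdkn2a, E2f3, Mcm5, Mcm6, Mcm7 and Rbl1. CHR letters lay in 25.6% against 16%. The AP-1 letters TGANTCA lay in 0% of the windows, where all genes had 6.75%, and the CRE in 5.13% against 1.55%, at Cdkn2b and Mcm5. The short SMAD letters CAGAC lay in 28.2% against 42.2%, and the NFAT letters GGAAA in 51.3% against 55.6%. These matches describe the sequence and not a bound site.

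**Figure D1:**
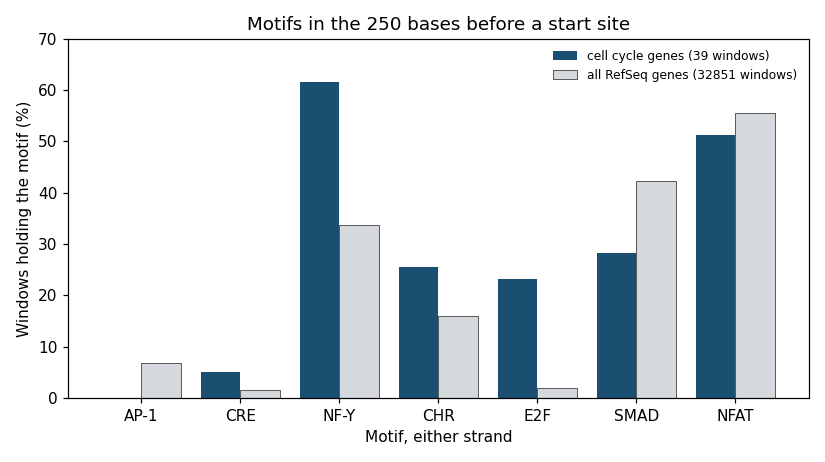
Bars give the share (%) of 250-base windows before a start site that hold each motif on either strand, for 39 windows of cell cycle genes (dark) and 32851 windows of all RefSeq genes (light). CCAAT, CHR, CRE and E2F letters were more frequent in the cell cycle windows, and AP-1, SMAD and NFAT letters less frequent.

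The labelled cell type was checked by the promoter regions of cell type markers in the JUN table. Of 7 fibroblast markers, 7 had a JUN promoter region, with 854 reads in the TGF-b and 471 in the siHK1 library. This was so for 2 of 5 cardiomyocyte markers with 132 and 56 reads, for 4 of 5 endothelial markers with 158 and 90 reads, and for 3 of 5 leukocyte markers with 316 and 182 reads, where Ptprc and Adgre1 had none. NFATC2 promoter reads were 30 and 23 for the fibroblast, 28 and 9 for the cardiomyocyte, 9 and 4 for the endothelial and 4 and 0 for the leukocyte markers. The order differed for SMAD3 and H3K9lc. SMAD3 promoter reads were 17 and 15 for the fibroblast and 144 and 79 for the cardiomyocyte markers, and H3K9lc promoter reads were 0 and 0 for the fibroblast and 64 and 28 for the endothelial markers. The total reads over listed regions ran from 115572 in the NC library to 4215447 in the TGF-b JUN library. Each comparison therefore set both libraries to the smaller of their totals, which hides any change common to all regions. With 1 library for each condition there is no replicate error, so no test was run and differences are between libraries. The 95% intervals given are exact and cover counting error only, which copies made by PCR can understate.

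JUN was the factor most often found at these genes. A region was assigned by the authors to the gene whose start site was nearest, and one within 3 kb of an annotated start was called a promoter region. That start can be of any annotated transcript, so it can lie far from the RefSeq window of the gene. Of the 45 genes, 38 had a JUN region and 35 a JUN promoter region, or 77.8%, against 49.4% of all 21900 protein-coding genes. A JUN region lay over an annotated start site in 25 of the 45, where the share among coding genes was 32.2%. The 65 other cell cycle genes listed for comparison, such as those of the origin complex and the kinetochore, had a JUN promoter region in 50, or 76.9%. SMAD3 promoter regions were found at 22 of the 45 genes against 34.2% of coding genes, and NFATC2 promoter regions at 19 against 35.1%.

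H3K9lc regions were rarer at these genes than regions of the factors. Only 15 of the 45 genes had an H3K9lc region in the TGF-b and siHK1 table and 3 had one at a promoter, namely Cdkn1c, Cdkn2a and Foxm1, or 6.67%, where coding genes had 15%. For NC and TGF-b, 16 genes had a region and 4 had one at a promoter, against 14.6%. The fourth was Cdkn1b, whose region held 1 NC read and 0 TGF-b reads. Among the 65 other cell cycle genes, 5 and 7 had an H3K9lc promoter region in these tables. The 7 fibroblast markers had no H3K9lc promoter region in the siHK1 table.

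By role, JUN promoter regions were found at 4 of 4 kinases, 5 of 5 G1 cyclins and 6 of 6 CDK inhibitors. Of the 3 cyclins of S, G2 and M phase, Ccna2 alone had one. The pocket proteins and E2F factors had 5 of 7, with Rb1 and Rbl1 lacking one, the replication genes 4 of 7, the genes of mitosis and proliferation 5 of 7, and the CDK phosphatases with WEE1 3 of 4. Both Myc and Foxm1 had one. JUN, SMAD3 and NFATC2 each had a promoter region at 12 genes, which were Cdk4, Cdk6, Ccnd3, Cdkn1a, E2f2, E2f3, Pcna, Aurkb, Mki67, Cdc25c, Wee1 and Myc. This share was 16.6% among coding genes. Some promoter regions at the 12 genes held few reads in the TGF-b and siHK1 libraries. Mki67 had 2 and 0 for NFATC2, and for SMAD3 Aurkb had 3 and 1 and Cdc25c 1 and 3. Another 10 genes had JUN alone at the promoter and 5 genes had none of the 4 antibodies there. Regions of the 3 factors overlapped by at least 1 base at 7 of the 55 JUN promoter regions of the set (12.7%), close to the 11.6% of all JUN promoter regions.

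**Figure D2:**
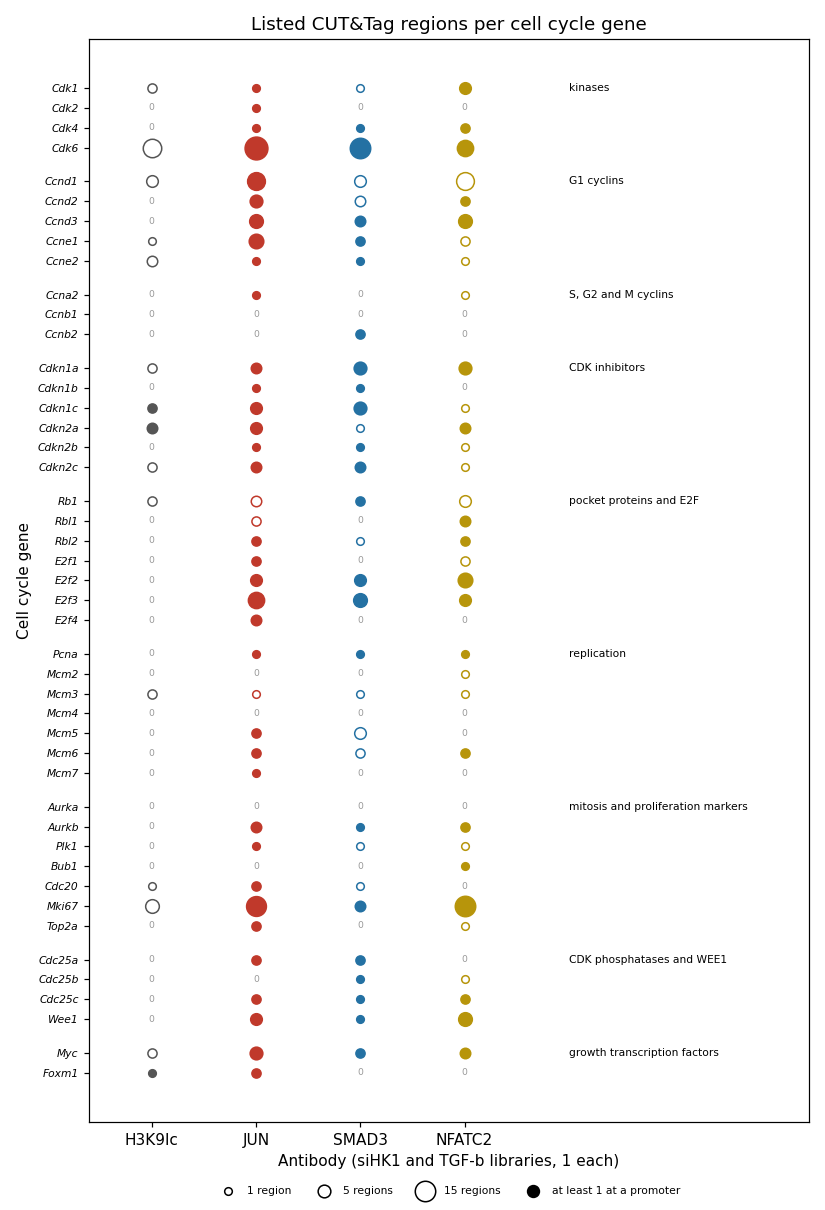
Circle size gives the number of listed regions of each cell cycle gene (rows) for each antibody (columns), from the TGF-b and siHK1 libraries, and filled circles mark genes with at least 1 region at a promoter. JUN circles are filled for 35 of 45 genes and H3K9lc circles for 3.

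The regions of the set lay nearer to start sites than listed regions in general. For JUN, 39.9% of the 138 regions of the set were promoter regions, against 25.6% of all 72990, and the median distance to a start was 9.41 kb against 14.5 kb. The shares were 30.5% against 18.9% for SMAD3 and 27.8% against 17% for NFATC2. H3K9lc regions of the set were mostly between genes (62.2% against 65.3%), 8.89% were promoter regions against 6.78%, and the median distance was 25.7 kb against 48.5 kb.

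**Figure D3:**
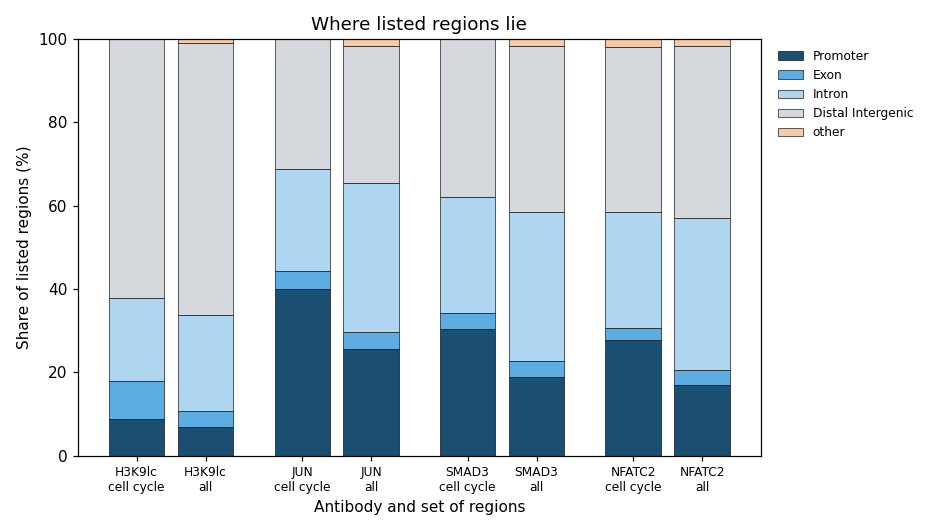
Stacked bars give the share (%) of listed regions at promoters, in exons, in introns, between genes and elsewhere, for the cell cycle genes and for all regions of each antibody. The promoter share of the cell cycle genes reached 39.9% for JUN and 8.89% for H3K9lc.

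The JUN regions at these promoters seldom held the AP-1 letters. In the central 201 bases, 1 of 55 JUN promoter regions of the set had TGANTCA (1.82%), at Foxm1, against 17.6% of all JUN promoter regions. Away from promoters 20 of 83 did (24.1%), against 33.4%. The median GC content of the promoter regions was 60.7% in the set and 55.3% in all.

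No CDK or G1 cyclin passed the call for JUN. Values are gene sums of reads, the log2 ratio is siHK1 over TGF-b at equal totals with 0.5 added, and a gene was called only at a ratio of at least 1.5-fold and a mean scaled level of at least 5 reads. Cdk4 had 106 JUN reads in the TGF-b and 58 in the siHK1 library, all in its promoter region chr10:127063210-127063801, for a log2 ratio of 0.02 (interval -0.47 to 0.50). Cdk1 had 36 and 22 reads, all at chr10:69352329-69353003, with a ratio of 0.18 (-0.65 to 0.99). Cdk6, a G1 kinase, had the highest JUN sum, 766 and 459 reads over 19 regions, with a ratio of 0.15. Per kb of listed region Cdk6 had 76.9 and 46.1 reads, fewer than Cdk4 with 179 and 98. The 5 G1 cyclins had JUN ratios from -0.50 (Ccnd2) to 0.21 (Ccne1).

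Wee1, the kinase that holds CDK1 inactive, had 624 and 336 JUN reads, the highest value per kb among these (232 and 125), and a log2 ratio of 0.00. Its promoter region chr7:110121418-110122315 held 174 and 90 of them. Mki67, which encodes the proliferation marker Ki-67, had 530 and 322 reads over 14 regions, of which 1 lay at its promoter with 7 and 8 reads. Myc had 495 and 281 reads and a ratio of 0.08, with 173 and 82 at chr15:61984439-61985701.

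Over the 37 genes past the level minimum, 2 were called lower and 4 higher for JUN, where 9.57% of all genes tested were lower and 7.07% higher. The median log2 ratio was 0.07 in the set and -0.01 in all. Among the 65 other cell cycle genes, 55 passed the minimum and 4 were lower and 5 higher. Both genes called lower, Mcm5 and Mcm6, encode helicase subunits.

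Mcm6 had 182 JUN reads in the TGF-b and 57 in the siHK1 library, and its log2 ratio of -0.78 had an interval of -1.24 to -0.35. Most of these reads lay at chr1:128357406-128358502, 1.1 kb from the start, with 145 and 43 reads and a peak in the TGF-b library only. The region over the start itself, which reaches into the printed window, had 37 and 14 reads. Mcm5 had 55 and 17 reads and a ratio of -0.78 (-1.68 to 0). Its promoter region chr8:75109399-75109598 held 20 and 11 reads, with a ratio of 0.03, so the call came from the region chr8:75136922-75137335, with 35 and 6 reads. This region lay 13.9 kb from the nearest annotated start, which is not the start at the printed window. That region was picked out after its values were seen. The other replication genes with JUN regions, Pcna (92 and 38 reads, -0.38), Mcm3 (38 and 21, 0.04) and Mcm7 (28 and 19, 0.32), were not called.

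The 4 genes called higher for JUN were a pocket protein, an E2F factor and 2 mitotic kinases. Rbl1, the pocket protein, had 33 and 32 reads with no promoter region, and a log2 ratio of 0.83 (0.10 to 1.59). E2f1, which activates replication genes, had 58 and 49 reads and a ratio of 0.64 (0.07 to 1.22), of which 54 and 44 lay at chr2:154569957-154570661. Aurkb, a kinase of chromosome segregation, had 49 and 40 reads and a ratio of 0.59 (-0.04 to 1.23). Plk1, a mitotic kinase, had 6 and 8 reads and a ratio of 1.19 (-0.41 to 3.11), in a region called as a peak in the siHK1 library only, and it passed the minimum through that library alone. For Aurkb and Plk1 the interval included 0, and with the authors' normalized values in place of equal totals Rbl1 and Plk1 alone were called higher.

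Cdkn1a, the p21 gene, lay just under the fold of a call for JUN with 276 and 222 reads, a ratio of 0.58 and an interval of 0.32 to 0.84. Its main promoter region chr17:29094355-29095660 had 218 and 188 reads and a ratio of 0.68 (0.39 to 0.97). Rbl2 had 16 and 1 JUN reads and was under the level minimum. Top2a, which encodes topoisomerase II alpha, had a region with 24 and 1 reads at chr11:98994152-98994555. It was annotated as a promoter region but lies far from the RefSeq window of Top2a, chr11:99024140-99024439. Another region, over the start at chr11:99023804-99024221, had 5 and 11 reads. These ran in opposite directions and left the gene sum at 29 and 12 reads without a call. The Cdkn1a, Rbl2 and Top2a values were picked out after they were seen.

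**Figure D4:**
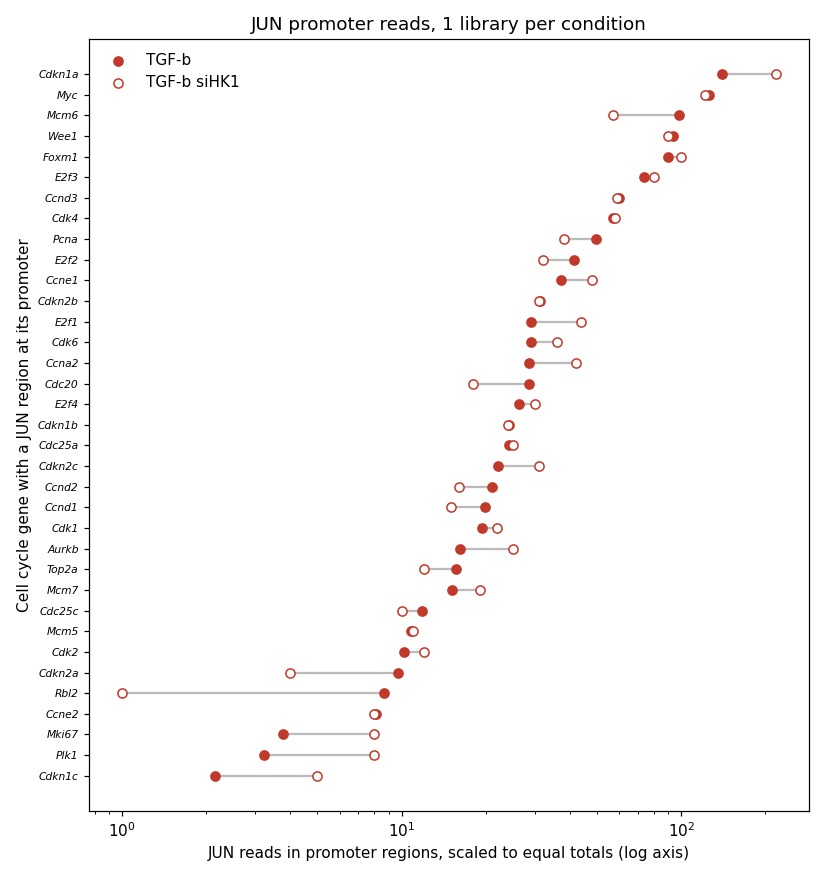
Filled and open points give JUN reads summed over the promoter regions of each of 35 cell cycle genes in the TGF-b and the siHK1 library, scaled to equal totals, on a log axis. The points lie close together for Cdk4, Wee1 and Foxm1, and apart for Mcm6, whose promoter regions held 182 and 57 reads before scaling. The Top2a sum includes a region annotated as promoter that lies far from its RefSeq window.

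SMAD3 had the most genes of the set called between the TGF-b and siHK1 libraries, and its counts were low, with a median of 3 and 4 reads per region of the set. Of 32 genes with a SMAD3 region, 22 passed the level minimum. Of these 13 were called higher in the siHK1 library and 3 lower, where 34.9% of all genes tested were higher and 21.6% lower. The median log2 ratio was 0.70 in the set and 0.21 in all. The 65 other cell cycle genes had 9 higher and 5 lower of 30, with a median of 0.24. The interval lay above 0 for 6 of the 13 and below 0 for all 3 lower genes. A gene under 5 reads in 1 library can pass the minimum only through the library where it is high, and most such genes had to differ. This was so for 5 of the 13 higher genes (Ccnb2, Ccnd1, Ccnd3, Ccne2 and Rb1) and for Mcm5 among the lower ones, so the counts and the median are a description only. Where both libraries reached 5 reads, 8 of 15 genes of the set were higher and 2 lower, against 28% and 19.3% of all such genes, and Cdk4, Ccne1 and E2f3 were the higher ones with an interval above 0. A further 10 genes lay under the minimum, 7 with a ratio above 0 and 3 below.

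Of the 5 G1 cyclins 4 were called higher for SMAD3, and of the 4 kinases Cdk4 alone, where 34.9% of all genes tested were higher. Ccnd1, which encodes cyclin D1, had 4 reads in the TGF-b and 19 in the siHK1 library over 4 regions, with a log2 ratio of 2.55 (1.15 to 4.76). It passed the minimum through the siHK1 library only. None of the 4 regions lay at the promoter. All lay between genes, from chr7:145001625 to chr7:145045564, far from its JUN promoter region chr7:144941366-144941654 and assigned by nearest start. Ccne1, whose cyclin E1 drives the step into S phase with CDK2, had 15 and 31 reads and a ratio of 1.5 (0.61 to 2.54). Its promoter region chr7:38107702-38108016 held 5 and 9 of them. Cdk4 had 9 and 17 reads, all in the region chr10:127063380-127063820 that covers much of the printed window, and a ratio of 1.35 (0.17 to 2.76). Ccne2 had 4 and 8 reads and Ccnd3 7 and 13, and for both the interval included 0. Like Ccnd1, both passed the minimum through the siHK1 library only, so the count of 4 is partly set by the filter. The fifth G1 cyclin, Ccnd2, had 10 and 8 reads and was not called.

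Of the 7 pocket proteins and E2F factors, 4 had a SMAD3 region and 3 of these were called higher, where 34.9% of all genes tested were higher. Rbl2 was under the level minimum. Rb1, which encodes the retinoblastoma protein, had 1 read in the TGF-b and 10 in the siHK1 library, with a ratio of 3.12 (1 to 9.26). Of these 0 and 6 lay at its promoter, and Rb1 passed the minimum through the siHK1 library only. E2f3 had 20 and 31 reads and a ratio of 1.10 (0.27 to 2.02), with 8 and 12 at chr13:29986408-29986851. E2f2 had 23 and 25 reads and a ratio of 0.60, whose interval of -0.26 to 1.5 included 0. Ccnb2, a mitotic cyclin with no JUN region, had 4 and 11 reads and a ratio of 1.78 (0.20 to 4.06), and it too passed through the siHK1 library only.

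The remaining 4 had intervals that included 0. Pcna had 11 and 14 SMAD3 reads, and so had Wee1, each with a log2 ratio of 0.80 (-0.40 to 2.13). The CDK inhibitors Cdkn1c and Cdkn2c had 10 and 14 reads (0.93) and 11 and 12 reads (0.59). The Pcna and Wee1 differences were thus within counting error. With the authors' normalized values 10 of 22 genes of the set were called higher for SMAD3, against 26.4% of all genes tested, as Cdkn1c, Cdkn2c and E2f2 were not. The 3 lower genes kept their call, where 26.3% of all genes were lower.

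The 3 genes called lower for SMAD3 were Mcm5, Mki67 and Cdkn2a. Mcm5 had 19 and 3 reads, a ratio of -2.00 (-4.57 to -0.40), and no promoter region. Its SMAD3 region with the most reads, chr8:75136537-75136904 with 10 and 2, lay beside the JUN region with 35 and 6 reads. It was 13.5 kb from the nearest annotated start, again not the start at the printed window. Mki67 had 20 and 5 reads and a ratio of -1.42 (-3.27 to -0.05), while its promoter region chr7:135716217-135716580 had 3 and 4. The other reads lay at chr7:135816932-135817185 and chr7:135844307-135844634, far from that promoter and assigned to Mki67 by nearest start only. Cdkn2a, whose proteins p16INK4a and p19ARF restrain the cycle, had 50 and 17 reads and a ratio of -1.04 (-1.95 to -0.24), none of them at the promoter and all in a region over 50% repeat.

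The genes with the highest SMAD3 sums were not called higher. Cdk6 had 129 and 75 reads (-0.29) and Cdkn1a 102 and 58 (-0.32). At Cdkn1a the promoter region chr17:29094669-29095001 went from 1 to 10 reads. Another region, chr17:29102897-29103487, went from 35 to 8 and lay 5 kb from an annotated start downstream of the RefSeq windows of Cdkn1a. The first had a log2 ratio of 3.12 (1 to 9.26) and the second of -1.58 (-2.95 to -0.50), the latter picked out after its value was seen. The other 4 SMAD3 regions of Cdkn1a are 87.1% to 100% repeat, and without regions over 50% repeat Cdkn1a was called higher on its promoter reads. That setting gave 15 of 20 genes of the set higher and 2 lower for SMAD3, against 44.8% and 17.5% of all genes tested. Cdk1 had 14 and 8 SMAD3 reads with no promoter region.

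With promoter regions alone, most SMAD3 calls were higher in the set and in all genes. Of 11 members whose promoter regions passed the level minimum, 10 were called higher and 0 lower, where 60.9% of all genes tested were higher and 9.81% lower. The median log2 ratio was 1.23 in the set and 0.83 in all. Of the 10, Ccne1, Ccne2, Cdkn1a, Cdkn2c and E2f2 passed through the siHK1 library only, while Cdk4, E2f3, Myc, Pcna and Wee1 reached 5 reads in both. The other 11 members with a SMAD3 promoter region lay under the minimum, 7 with a ratio above 0 and 4 below, among them Cdkn2b with 5 and 1 reads, so the count of 10 is partly set by the filter. Of the 25 SMAD3 promoter regions of the set, 20 were called as peaks in the siHK1 library only (80%), 4 in the TGF-b library only and 1 in both. Among all SMAD3 promoter regions 59.2% were siHK1 only. A region listed for a peak in 1 library was selected on the same reads, so these peak calls and the read ratios are not separate evidence.

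NFATC2 regions were listed for 33 genes of the set. Of these 33, 16 passed the minimum, of which 3 were lower and 2 higher, against 17.1% lower and 26.5% higher among all genes tested, and the median log2 ratio was 0.02 against 0.11. The interval of each of these 5 included 0. Cdk1 had 16 and 6 NFATC2 reads and a ratio of -0.67 (-2.36 to 0.71), with 10 and 1 in the promoter region chr10:69352674-69353091 that overlies the printed window. Aurkb also had 16 and 6 reads, and Rbl2 36 and 14, of which 30 and 13 lay at chr8:91103886-91104578. The 2 higher genes were Rbl1 with 7 and 7 reads and Myc with 5 and 8, and both passed the minimum through the siHK1 library only, so that 0 of 14 genes with 5 reads in both libraries were higher, against 18.2% of all such genes, and 3 were lower, against 14.4%. With the authors' normalized values Cdk1 and Rbl1 were not called and Rb1 was called higher.

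The highest NFATC2 sums were those of Cdk6 (87 and 60 reads, 0.16), Cdkn1a (61 and 36, -0.06) and Mki67 (47 and 26, -0.15). Cdk4 had 19 and 15 reads, Wee1 41 and 27, and Pcna 16 and 12, with log2 ratios of 0.35, 0.09 and 0.27. None of these genes was called, and the intervals were wide, as from -0.93 to 1.46 for Pcna.

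**Figure D5:**
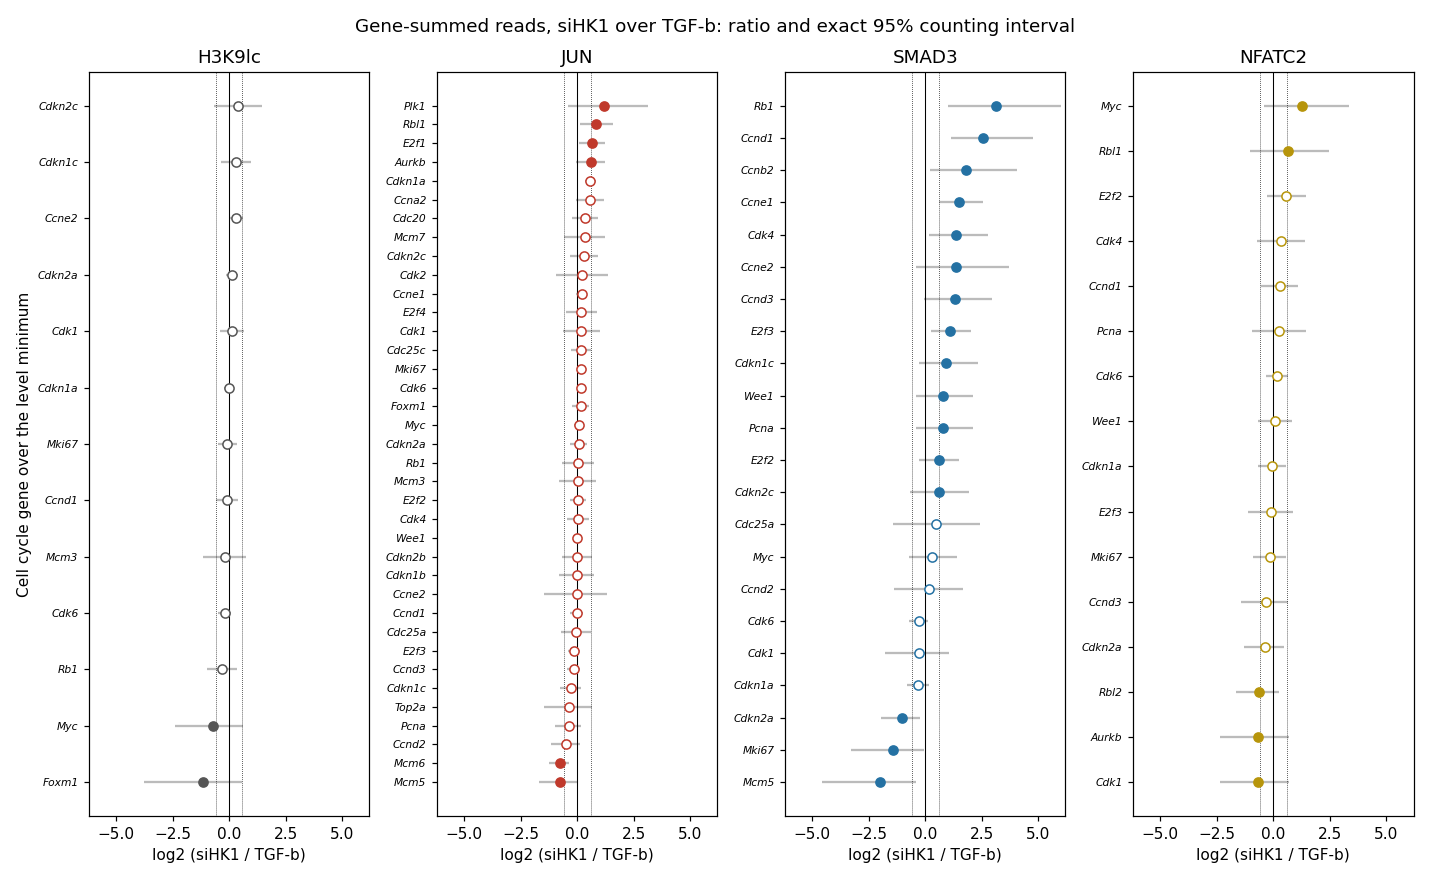
Points give the log2 ratio of gene-summed reads (siHK1 over TGF-b) and lines the exact 95% counting interval for each cell cycle gene over the level minimum, 1 panel per antibody, with 1 library per condition. SMAD3 shows 13 genes called higher and 3 lower, while most H3K9lc and JUN points lie near 0.

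H3K9lc regions of the set were few, and those with the most reads lay away from promoters. Cdkn1a had 624 reads in the TGF-b and 347 in the siHK1 library, or 254 and 142 per kb, with a log2 ratio of -0.03 (-0.23 to 0.16). They lay in 2 regions between genes, chr17:29101719-29103529 with 418 and 246 reads and chr17:29104282-29104922 with 206 and 101, which are 92.1% and 93.4% repeat sequence in the reference. Cdkn2a had 292 and 182 reads (0.13) and Cdk6 285 and 141 (-0.20). Cdk1 had 82 and 51 reads and a ratio of 0.13 (-0.41 to 0.65), in regions 8.1 and 9.1 kb before its start, chr10:69361019-69361780 with 59 and 45 and chr10:69362034-69362386 with 23 and 6. The first of these 2 regions is 54.1% repeat. Without regions over 50% repeat Cdk1 and Cdkn2a were called lower for H3K9lc, where their gene sums had ratios above 0. The Cdkn1a and Cdk1 regions were picked out after their values were seen.

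Of the 13 genes past the minimum for H3K9lc, 2 were lower and 0 higher in the siHK1 library, where 9.96% of all genes tested were lower and 7.46% higher. No test was run for this count of 0, and none of the 13 had an interval without 0. The median log2 ratio was -0.08 in the set and -0.06 in all. Foxm1, a factor that turns on genes of G2 and M phase, had 13 and 3 reads in its promoter region chr6:128366598-128366817, with a ratio of -1.18 (-3.76 to 0.56), and it passed the minimum through the TGF-b library only, where it was high. Myc had 18 and 6 reads in 2 regions far upstream, with a ratio of -0.73 (-2.39 to 0.62). The region of Foxm1 is 58.6% repeat and both regions of Myc are 100%, and neither gene was called without regions over 50% repeat or at a level of 10 reads. At promoters, Cdkn2a had 19 and 3 reads at chr4:89282067-89282376, while its gene sum of 292 and 182 came mostly from elsewhere in the gene. Of the 292 TGF-b reads 263 lay in the intron region chr4:89264700-89264927, which is 93.4% repeat.

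From NC to TGF-b the H3K9lc values rest on the shallow NC library, whose total was 20 times smaller, and on the same TGF-b library as the comparison above. Only 5 of 16 genes passed the minimum. Cdk1 was lower with 8 NC and 82 TGF-b reads, a log2 ratio of -0.89 (-2.01 to 0.29) at equal totals, and it passed the minimum through the NC library only. Cdkn2a was higher with 8 and 292 reads and a ratio of 0.83 (-0.13 to 2.09). Of these reads 8 and 263 lay in the intron region chr4:89264700-89264927, which is 93.4% repeat. Without regions over 50% repeat no member reached the level minimum, so that setting gives no call. Both intervals included 0, and 5.11% of all genes tested were lower and 27.9% higher. Cdkn1a had 23 and 613 reads (0.41), Cdk6 10 and 287 (0.50) and Mki67 7 and 133 (-0.07). The median was 0.41 in the set and 0.31 in all. With the authors' normalized values 0 of 8 genes of the set were lower and 6 higher, against 1.33% and 65.6% of all genes tested, so the Cdk1 call ended.

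Some of the higher H3K9lc sums lay in repeat sequence, whose reads can be placed at more than 1 site. Leaving out regions over 50% repeat moved the H3K9lc median of the set from -0.08 to -0.21. The Cdk6 intron region chr5:3436071-3437908, picked out after its values were seen, had 94 and 53 H3K9lc reads, was 87.4% repeat sequence and overlapped regions of all 3 factors. Of the 45 H3K9lc regions of the set, 24 were over 50% repeat (53.3%), against 55.7% of all. Overlap of H3K9lc with JUN regions by at least 1 base was seen for 9 of 45 regions of the set (20%), against 5.92% of all H3K9lc regions, and with all 3 factors for 2 (4.44%), against 2.18%. These 2, the Cdk6 intron region and chr4:89264700-89264927 at Cdkn2a (93.4% repeat), are both over 50% repeat. Among the 9, so are the Foxm1 region and the Ccnd1 region chr7:144978433-144979243. Whether the overlap came from repeat sequence was not tested.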

How the data were processed

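CUT&Tag reads were counted per region in 5 tables, each of which the authors deposited for 1 pair of libraries, with regions that, with few exceptions, held a peak in either. For each library the authors deposited raw read counts, a normalized count on a log2 scale, and 0 or 1 marks for a peak (unit other). Their own log2 ratios, standard errors, p-values and change calls were not used. The submitters' processing notes name BWA 0.7.12 and mm10, whereas the methods name Bowtie2, MACS2 and a later build. Of 18167 transcripts listed for H3K9lc, 17995 were found in GENCODE vM21 (GRCm38), 17995 with the same start and end, so GRCm38 was used. Of 10 libraries, 9 were used, and the TGF-b library with no antibody named was not analysed here. Counts were summed per gene, both libraries were scaled to the smaller total over listed regions, and log2 ratios used a pseudocount of 0.5 with exact Clopper-Pearson intervals (95%). Calls needed a 1.5-fold ratio and a level of 5 reads. The steps were tested on simulated data. Those totals leave out reads elsewhere and so do not give sequencing depth. Members and lists were chosen with earlier results of these data known. By rule, reads are given for called members, the 3 of highest level per table and Cdk1, and regions for promoters with the most reads. Reads of further members, such as Cdk4, Myc and Pcna for JUN or NFATC2, were added after their values were seen. RefSeq promoter entries (GRCm38.p6) matched 32 of 45 members. Python 3.11.15, numpy 2.4.6, pandas 2.3.3, scipy 1.17.1, matplotlib 3.10.9 and pysam 0.24.0 were used. One sequence and the region that holds it are not reported here.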

Additional observations from a re-analysis of the deposited data

How the results depend on the processing

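No paired analysis was possible because the labels give a single library per antibody and treatment, and no replicate was there to leave out. Of 113 values recomputed under other settings, 65 kept their direction and stayed close to the reported value or count, though not always with the same genes, 45 moved and 3 reversed. The cause of these moves was not tested, beyond the fewer genes that stricter settings leave.

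With the authors' normalized values the JUN median of the set turned to -0.01, where that of all genes was -0.08, and 2 of 38 genes were called higher (5.29% of all genes), the SMAD3 median was 0.49, and the TGF-b over NC comparison had 0 lower, 6 higher and a median of 0.92. That scaling moved the median of all genes by -0.20 for SMAD3 and 0.46 for TGF-b over NC. Of the genes called in either direction it moved the share called higher to 32.5% where H3K9lc had 42.8%, to 30.3% where JUN had 42.5%, to 50.1% where SMAD3 had 61.7%, and to 98% where TGF-b over NC had 84.5%. Leaving the 20 most-read regions out of the totals, an alternative chosen after seeing the data, moved the last share to 59.2% and its median by -0.23. It gave 5 of 37 genes higher for JUN (7.33%) and 12 of 22 for SMAD3 (34.6%).

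With promoter regions only, JUN had 3 of 33 lower (Cdc20, Cdkn2a and Mcm6, against 13.3% of all genes) and 5 higher (Aurkb, Cdkn1a, E2f1, Mki67 and Plk1, against 10.4%), without Mcm5 and Rbl1. The median was -1.18 for H3K9lc, 1.23 for SMAD3 with 0 lower, and turned to -0.26 for NFATC2, where all genes had 0.11, with 0 of 8 higher (27.5%) and 2 lower (19.3%), while TGF-b over NC had 0 lower and 0 higher and no median, since 0 members passed the minimum. With no level minimum H3K9lc had 1 of 15 higher (11.7% of all genes), SMAD3 6 of 32 lower (28.0%) and 19 higher (36.8%), NFATC2 8 of 33 lower (23.3%) and 13 higher (33.9%) with a median of 0.27, and TGF-b over NC 5 of 16 lower (18.9%) and 7 higher (37.7%). At a level of at least 10 reads H3K9lc had 0 of 11 lower (7.11%), SMAD3 1 of 12 lower (19.6%) and 8 higher (31.4%), NFATC2 1 of 12 lower (14%) and 0 higher (20.6%), and TGF-b over NC 0 of 3 lower (3.08%). At 2-fold H3K9lc had 1 of 13 lower (3.08%), JUN 0 of 37 lower (3.04%) and 1 higher (2.2%), SMAD3 8 of 22 higher (20.2%), NFATC2 0 of 16 lower (7.68%) and 1 higher (13.3%), and TGF-b over NC 0 of 5 lower (1.27%) and 0 higher (10.7%).

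Other alternatives were chosen after seeing the data. When a call needed an interval without 0, H3K9lc had 0 lower, JUN 1 lower (Mcm6) and 2 higher (E2f1 and Rbl1), SMAD3 6 higher, NFATC2 0 lower and 0 higher, and TGF-b over NC 0 lower and 0 higher. Without regions over 50% repeat the median was -0.21 for H3K9lc, 1.09 for SMAD3 and turned to -0.08 for NFATC2, which had 1 of 13 higher (28.8%), and TGF-b over NC had 0 lower and 0 higher with no median. H3K9lc again had 2 of 9 lower (15.5%), but these were Cdk1 and Cdkn2a in place of Foxm1 and Myc. Low counts limit SMAD3 and NFATC2, with medians of 2 to 4 reads per region of the set, and NC, with 1. Library depth was not measured here.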
